A study of Mus musculus with 16 samples.

Results

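The genes described are 8 members of neurotrophin and GDNF-family signalling, Ntrk2, Ntrk3, Ngfr, Ret, Gfra1, Gfra2, Gfra3 and Bdnf, taken by their symbols in the mouse annotation from a table of 52636 genes. They were counted by RNA sequencing of dorsal root ganglia (DRGs), which hold the cell bodies of sensory neurons, from 16 male C57Bl6/J mice aged 3 to 4 months, with 1 mouse per library and 4 mice in each of 4 groups. Sham-Saline and Sham-DMI mice had sham surgery. SNI-Saline and SNI-DMI mice had tibial spared nerve injury (SNI), in which the common peroneal and sural branches of the sciatic nerve are tied and cut and the tibial branch is left intact, so that ganglia of the lumbar levels sampled hold both injured and uninjured neurons. The DMI groups received desipramine, a tricyclic antidepressant that blocks noradrenaline reuptake, at 15 mg/kg, given intraperitoneally 2 times a day over 3 weeks, and mice of the saline groups were injected with saline on the same schedule. By the labels, treatment began 4 weeks after surgery, whereas the study's methods section gives months in place of weeks. The sources do not state from which side the ganglia were taken.

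Neurotrophins are secreted survival and growth factors. BDNF binds the receptor tyrosine kinase TrkB (Ntrk2), NT-3 binds TrkC (Ntrk3), and both also bind p75NTR (Ngfr), which modifies Trk signalling. GDNF-family ligands bind a membrane-anchored co-receptor, with GFRα1 (Gfra1) preferring GDNF, GFRα2 (Gfra2) neurturin and GFRα3 (Gfra3) artemin, and the complex then activates the receptor tyrosine kinase RET. In adult DRGs TrkC marks proprioceptors and part of the mechanoreceptors, TrkB a set of mechanoreceptors, RET with GFRα2 mainly non-peptidergic nociceptors, and GFRα3 peptidergic nociceptors, while p75NTR is found in many neurons and in glia.

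The libraries held 41194238 to 73920332 read pairs on genes, and all 8 members passed the filter on low counts, with at least 1511 read pairs in every library. The labels name dorsal root ganglia as the cell type but spinal cord as the tissue. DRG markers were abundant, the summed level of 9 sensory neuron markers lying between 4690 and 5530 counts per 1000000 counts on genes (CPM), with Prph at 1440 to 1960 CPM and Avil at 824 to 1030 CPM. The 11 spinal cord markers summed to 23.1 to 58.4 CPM, and 6 of them passed the filter. Chat, an enzyme gene expressed in motor neurons, reached at most 0.0919 CPM. In the Sham-DMI group, replicates 2 and 4 stood apart in markers of injured sensory neurons. Sprr1a, a gene switched on in axotomised neurons, stood at 12.2 and 9.19 CPM in those libraries against 0.619 to 2.06 CPM in the other 6 sham libraries and 30.1 to 73.9 CPM in the SNI libraries. For Sprr1a and for Npy, another marker of injured sensory neurons, the rise was confined to these 2 libraries. Sham-DMI replicates 1 and 3 held 1.81 and 1.67 CPM of Sprr1a and 0.512 and 1.5 CPM of Npy. The Sham-Saline libraries held up to 2.06 and 1.55 CPM of these genes. Atf3, a further marker, stood at 11.4 and 13.7 CPM in replicates 1 and 3 against 7.44 to 12.1 CPM in Sham-Saline. Of 8 such markers, 5 were called higher and 0 lower in Sham-DMI than in Sham-Saline, where 23.4% of all genes were called. Their sum was 358 to 399 CPM in Sham-DMI against 297 to 332 CPM in Sham-Saline. Ecel1 stood at 2.85 to 6.29 against 1.43 to 2.46 CPM. For the sum and for Ecel1, the rise was therefore also present in Sham-DMI replicates 1 and 3. Calls of the members, and of the pathway genes in Sham-DMI against Sham-Saline, are also given without replicates 2 and 4 where they use the Sham-DMI group. Leaving these 2 out removes the rise of Sprr1a and Npy, but not that of the summed markers or of Ecel1. Library numbers ran from 17 to 24 in the DMI groups and from 33 to 40 in the saline groups, in blocks of 4 per group, so an order of preparation and the groups cannot be told apart.

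Of the 8 members, 4 had RefSeq start sites that matched a promoter window, with 7 of the 10 windows belonging to Bdnf, a gene with many alternative first exons. The 250 bases before each start were searched on both strands for TGACGTCA, the cyclic AMP response element, and for its half-site CGTCA, which every full element also contains. They were also searched for the AP-1-like motif TGANTCA, in which N is any base. Factors that bind the cyclic AMP response element and AP-1 sites are known to respond to neuronal activity and nerve injury. A match to the looser AP-1-like motif need not be an AP-1 site. The full element was found in 0 of the 10 windows, against 1.55% of 32851 mouse promoter windows. The half-site was in 1 window, against 17.8% of all windows, and the AP-1-like motif in 1, against 6.75%. Both matches were in windows of Bdnf. They are shown with the Ntrk2 window, the receptor whose level differed in both comparisons with Sham-Saline, and capitals mark the matches (GRCm38.p6, plus strand, chr2:109692186-109692435, chr2:109676782-109677031 and chr13:58806319-58806568 in this order).
Bdnf, window with the half-site: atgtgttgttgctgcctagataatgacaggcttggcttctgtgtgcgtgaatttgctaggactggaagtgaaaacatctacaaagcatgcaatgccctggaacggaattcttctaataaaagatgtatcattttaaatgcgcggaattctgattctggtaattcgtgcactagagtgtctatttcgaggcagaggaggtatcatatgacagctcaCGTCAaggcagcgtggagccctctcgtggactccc
Bdnf, window with the AP-1-like motif: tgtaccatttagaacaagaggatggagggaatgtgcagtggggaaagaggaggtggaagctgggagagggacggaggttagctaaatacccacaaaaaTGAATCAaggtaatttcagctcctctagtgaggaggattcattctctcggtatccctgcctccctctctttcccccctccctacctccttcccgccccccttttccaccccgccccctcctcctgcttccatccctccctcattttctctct
Ntrk2: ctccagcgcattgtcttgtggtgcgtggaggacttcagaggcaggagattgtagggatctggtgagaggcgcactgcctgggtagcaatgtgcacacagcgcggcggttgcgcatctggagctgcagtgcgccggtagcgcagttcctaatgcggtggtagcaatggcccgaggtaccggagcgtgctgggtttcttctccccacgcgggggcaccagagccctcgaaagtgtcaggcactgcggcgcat
The half-site began 35 bases before its start site and the AP-1-like match 152 bases before its own. The Ntrk2 window held none of the 3 motifs. The deposited counts are per gene and do not separate the starts of Bdnf.

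On a scale divided by gene length, CPM per kilobase of merged exons, the members spanned a wide range in Sham-Saline DRGs. Merged exons join all annotated transcripts of a gene, which the counts do not separate. The rank of genes with long merged exons, such as Ntrk3 (30.17 kb) and Ntrk2 (19.29 kb), therefore depends on the annotation. Ngfr was highest at 231 ± 13.5 (SD, n = 4), followed by Ret at 133 ± 8.69. Gfra2 stood at 59.3 ± 5.67. Gfra3 at 35.98 ± 3.37 and Gfra1 at 32.36 ± 0.805 did not differ beyond their spread, with ranges of 31.22 to 38.99 and 31.18 to 32.98. Ntrk3 at 15.2 ± 2.03 and Ntrk2 at 13.9 ± 1.07 also had overlapping ranges. Bdnf, the only ligand among the members, was lowest at 4.85 ± 0.183. All further levels are CPM, which are not corrected for gene length and were compared only between libraries.

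The differences called in the pairwise comparisons were lower levels of Ntrk2 and Gfra2 after injury in saline mice and lower levels of Ntrk2 and Ntrk3 with DMI in sham mice, and the lowest adjusted p of any comparison was that of Ntrk3 for the mean DMI effect. Counted over the members, 2 of 8 were called at an adjusted p under 0.1 in SNI-Saline against Sham-Saline, both lower, against 12.0% of the 21371 genes tested. In Sham-DMI against Sham-Saline 2 were called, both lower, against 23.4% of all genes. In SNI-DMI against SNI-Saline edgeR called 0 of 8, against 2.93% of all genes, with 3 at an unadjusted p under 0.05 (18.5% of all genes), and DESeq2 called 2. In SNI-DMI against Sham-DMI edgeR called 0, against 0.402% of all genes, with 2 at an unadjusted p under 0.05 (12.1% of all genes), and DESeq2 called 0. For the difference between the injury effects edgeR called 0, against 0.0% of all genes, with 1 at an unadjusted p under 0.05 (7.92% of all genes), and DESeq2 called 0. Groups did not overlap for 3 members in SNI-Saline against Sham-Saline (15.4% of all genes), for 1 in SNI-DMI against SNI-Saline (13.3%), and for 0 in Sham-DMI against Sham-Saline (17.1%) and in SNI-DMI against Sham-DMI (5.04%). The mean injury effect called 3 members (16.1% of all genes) and the mean DMI effect 4 (30.6% of all genes). The median size of the members' log2 differences was 0.17 in the saline injury comparison, against 0.14 over all genes, and 0.10 in the sham DMI comparison, against 0.17 over all genes. The comparisons share libraries, except that SNI-Saline against Sham-Saline has none in common with SNI-DMI against Sham-DMI, nor has SNI-DMI against SNI-Saline with Sham-DMI against Sham-Saline. The share of all genes called depended on single libraries. In SNI-DMI against SNI-Saline it was 0.0% when SNI-Saline 1 or 3 or SNI-DMI 1, 2 or 3 was left out and 8.48% when Sham-DMI 1 was, and in SNI-Saline against Sham-Saline it ran from 3.15% (leaving out Sham-Saline 3) to 15.1% (leaving out Sham-DMI 1).

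**Figure D1:**
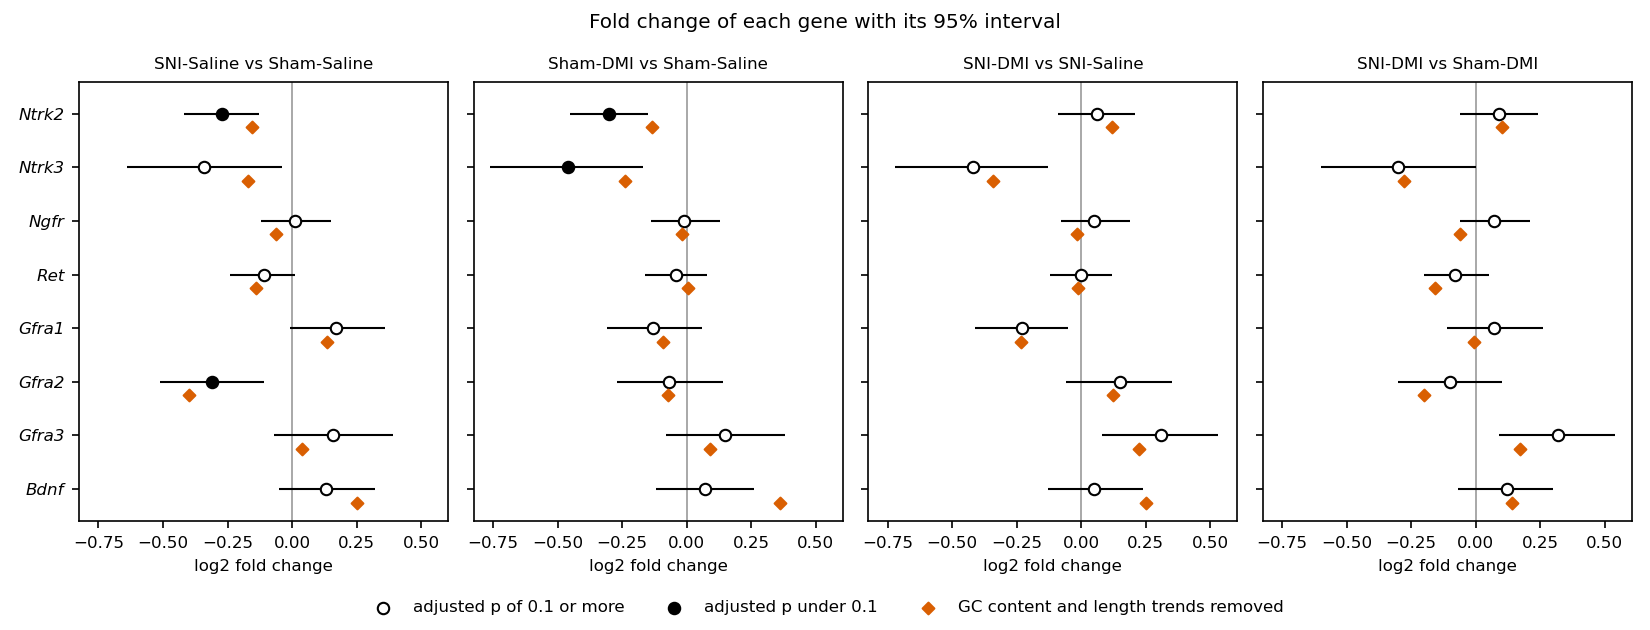
Log2 fold change (horizontal axes) of the 8 genes in 4 comparisons, with 95% intervals as lines. Filled circles passed an adjusted p under 0.1, open circles did not, and diamonds are the same differences with the trends with GC content and exon length removed. With the trends removed, Ntrk2 moves from -0.27 to -0.15 and Gfra2 from -0.31 to -0.40 in SNI-Saline against Sham-Saline, and Bdnf from 0.07 to 0.36 in Sham-DMI against Sham-Saline.

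**Figure D2:**
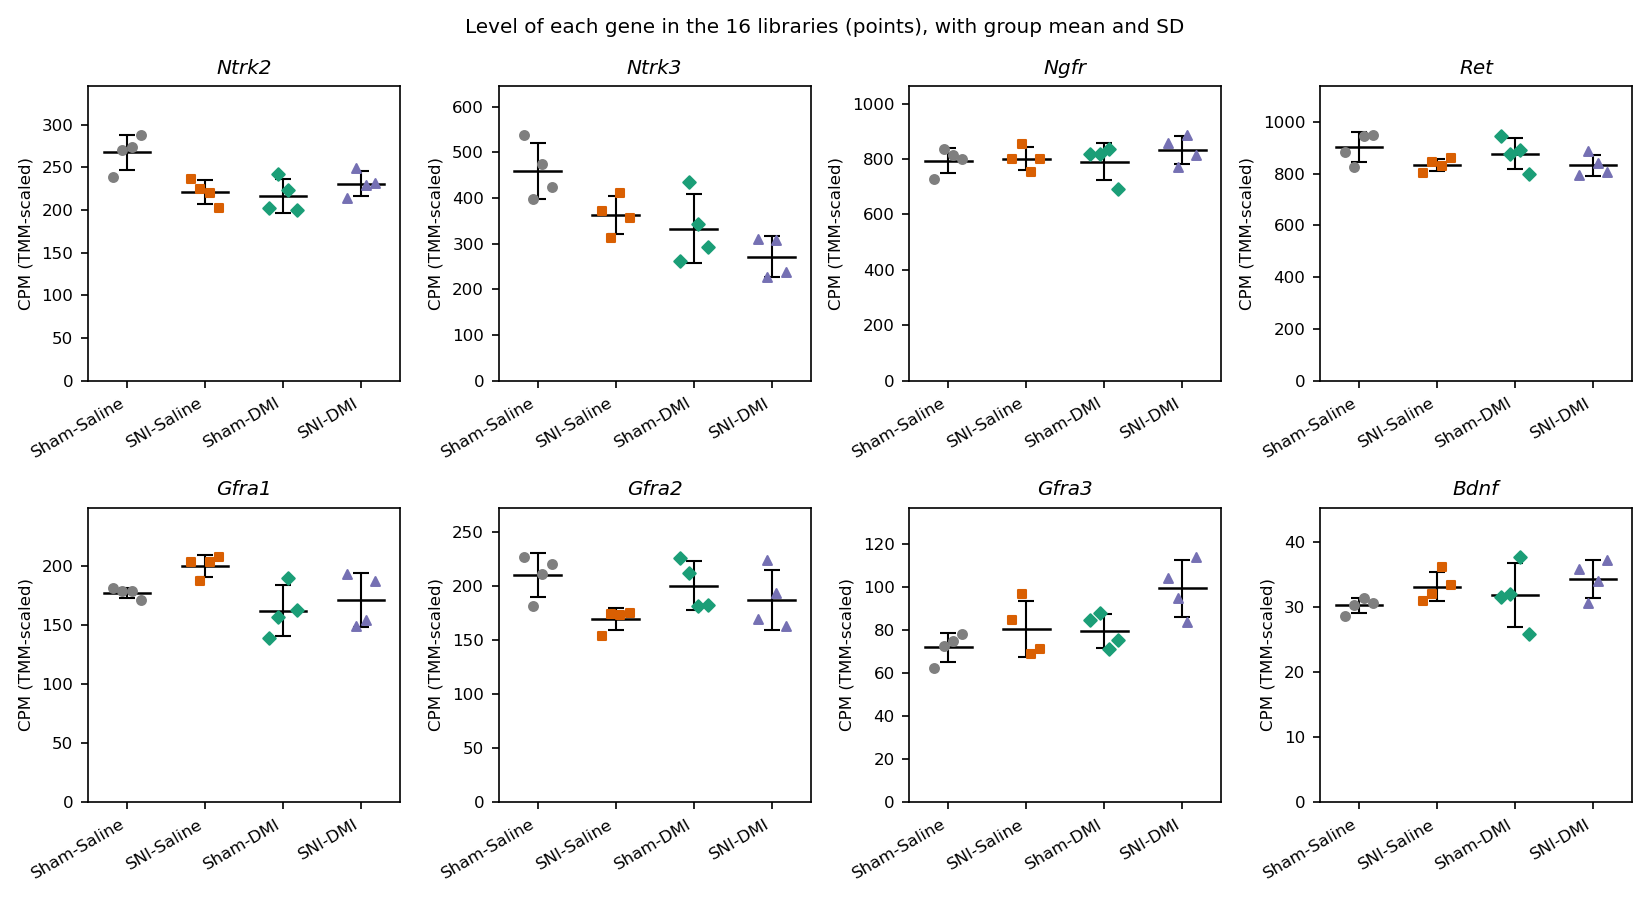
Level of each of the 8 genes in CPM (vertical axis, from 0) in the 16 libraries, which are shown as points by group. Horizontal lines are group means and error bars are SD (n = 4). All 4 SNI-Saline libraries lie below all 4 Sham-Saline libraries for Ntrk2 (203 to 237 against 239 to 288 CPM) and Gfra2 (154 to 175 against 181 to 227 CPM), and all 4 SNI-DMI libraries lie below all 4 SNI-Saline libraries for Ntrk3 (227 to 311 against 312 to 412 CPM).

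Ntrk2 (TrkB, the BDNF receptor; chr13:58806569-59133970, plus strand, mm10) was lower in SNI-Saline and in Sham-DMI mice than in Sham-Saline mice. In the Sham-Saline libraries it stood at 239, 270, 274 and 288 CPM. The SNI-Saline libraries held 237, 225, 220 and 203 CPM, all below the lowest Sham-Saline library. The Sham-DMI libraries held 203, 242, 224 and 200 CPM, with only replicate 2 within the Sham-Saline range. The SNI-DMI libraries held 214, 249, 230 and 232 CPM and overlapped each of the other groups. Relative to Sham-Saline, Ntrk2 fell by 0.27 on the log2 scale in SNI-Saline (SE 0.071, adjusted p = 0.0353, edgeR) and by 0.30 in Sham-DMI (SE 0.071, adjusted p = 0.00896). The difference between SNI-DMI and SNI-Saline was 0.06 (95% interval -0.09 to 0.21, adjusted p = 0.673). The injury effect in DMI mice minus that in saline mice was 0.36 (95% interval 0.15 to 0.58, adjusted p = 0.619, edgeR), so the difference between the injury effects failed the correction over all genes. The sham DMI effect was -0.33 without Sham-DMI replicates 2 and 4 (adjusted p = 0.0118). The injury call was lost without Sham-Saline replicate 3 (-0.25, adjusted p = 0.116) or replicate 4 (-0.23, adjusted p = 0.11), and the sham DMI call was kept without any 1 of the 16 libraries (highest adjusted p = 0.047). Averaged over both surgeries, Ntrk2 fell with DMI by 0.12 (adjusted p = 0.0923), a call that was lost in 12 of the 16 fits without 1 library (-0.13 to -0.09, omitting any library other than Sham-Saline 1, SNI-Saline 4, Sham-DMI 2 or SNI-DMI 2). It was -0.13 without Sham-DMI replicates 2 and 4 (adjusted p = 0.0665), and the call was also lost in DESeq2 (-0.11, adjusted p = 0.109) and without a filter on low counts (-0.11, adjusted p = 0.147).

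Ntrk3 (TrkC, the NT-3 receptor; chr7:78175959-78738012, minus strand) showed the widest range over the libraries among the members, the highest level being 2.37 times the lowest. In the Sham-Saline libraries it stood at 538, 398, 475 and 425 CPM. In SNI-Saline it stood at 371, 312, 412 and 356 CPM, 3 of the 4 below every Sham-Saline library. The fitted difference was -0.34 (95% interval -0.64 to -0.04, adjusted p = 0.154) and was not called in edgeR. It passed the threshold in DESeq2 (-0.33, adjusted p = 0.0829), but not with the GC content and length trends removed (-0.17, adjusted p = 0.415). The Sham-DMI libraries held 263, 435, 343 and 292 CPM, where again only replicate 2 reached the Sham-Saline range. The SNI-DMI libraries held 311, 227, 308 and 237 CPM, all below the lowest SNI-Saline library. Averaged over both surgeries, DMI libraries were lower than saline libraries by a log2 difference of -0.44 (SE 0.0999, adjusted p = 0.00462). This call held in each of the 16 fits without 1 library, with a highest adjusted p of 0.0131, and at -0.51 without Sham-DMI replicates 2 and 4 (adjusted p = 0.00175). Within sham mice the DMI effect was -0.46 (SE 0.141, adjusted p = 0.0326) and -0.60 without those 2 libraries (adjusted p = 0.0145). The sham call was lost without Sham-Saline replicate 1 (-0.36, adjusted p = 0.116) or Sham-DMI replicate 1 (-0.35, adjusted p = 0.122). Within SNI mice the DMI effect was -0.42 (95% interval -0.72 to -0.13, adjusted p = 0.13), a difference that did not pass the threshold in edgeR and passed it in DESeq2 (adjusted p = 0.0443). The mean injury effect over both drugs was -0.32 (SE 0.0998, adjusted p = 0.051) and -0.25 without Sham-DMI replicates 2 and 4 (adjusted p = 0.14), and it was lost in 4 of the 16 fits without 1 library (-0.23 to -0.30), those leaving out Sham-Saline 1, SNI-Saline 2 or Sham-DMI 2 or 3. Of 7 markers of large-diameter A-fibre neurons, the class that expresses Ntrk3, the transcription factor gene Etv1 (-0.24, adjusted p = 0.0434) and the axonal gene Cntnap2 (-0.22, adjusted p = 0.011) fell with DMI over both surgeries and Pvalb, a calcium-binding protein of proprioceptors, rose (0.36, adjusted p = 0.00659). In that DMI effect 30.6% of all genes were called. Etv1 and Cntnap2 also fell in the mean injury effect (-0.23 and -0.16), where 0 rose and 16.1% of all genes were called. In the pairwise comparisons 1 marker rose in SNI-Saline against Sham-Saline, where 12.0% of all genes were called. In Sham-DMI against Sham-Saline 2 rose (23.4% of all genes), and in SNI-DMI against SNI-Saline 0 were called (2.93%). Their summed level with saline was 2440 to 3160 CPM in sham and 2930 to 3280 CPM in SNI mice, and with DMI 3000 to 3550 CPM in sham and 2580 to 3250 CPM in SNI mice. Of the 11 spinal cord markers 6 were tested, and over both surgeries 4 fell with DMI and 0 rose, namely the glial genes Slc1a2 (-0.51, adjusted p = 0.00228), Gfap (-0.68, adjusted p = 0.0147), Mobp (-1.04, adjusted p = 0.0446) and Aqp4 (-0.26, adjusted p = 0.0661). Over all genes 30.6% were called in this mean DMI effect. The part of either marker list in the Trk results was not tested.

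The levels of both Trk genes ran with those of genes that have long exons. The merged exons of Ntrk3 span 30.17 kb and those of Ntrk2 19.29 kb. A long-exon index was taken for each library as the median deviation, in log2 CPM, of 1486 genes with at least 10 kb of merged exons from their own means over the libraries, relative to all genes. With saline the index was 0.07 to 0.18 in sham and -0.04 to 0.06 in SNI libraries, and with DMI it was -0.16 to 0.09 in sham and -0.13 to -0.07 in SNI libraries. Over the 16 libraries, log2 CPM of Ntrk3 and the index had a Pearson r of 0.95 and a Spearman rho of 0.96, with r = 0.93 without the 2 libraries farthest from the median index and r = 0.90 within groups. For Ntrk2 the same values were 0.61, 0.54, 0.56 and 0.23, and for Gfra3 they were -0.63, -0.62, -0.53 and -0.26. The other members had a Pearson r of -0.18 to 0.36. A low-GC index was taken in the same way over 2155 genes with a GC content under 42%. Against it r was 0.90 for Ntrk3, 0.50 for Ntrk2 and -0.70 for Gfra3 (0.68, 0.00 and -0.37 within groups). Which of both trends the levels follow was not tested. These points share libraries and groups, both Trk genes are among the long-exon genes, and the values are a description. When trends of the counts with GC content and exon length were removed from each library over all genes, the Ntrk2 difference moved to -0.15 for SNI-Saline against Sham-Saline (adjusted p = 0.297) and to -0.13 for Sham-DMI against Sham-Saline (adjusted p = 0.274), and neither call remained. The mean DMI effect on Ntrk2 moved to -0.01 (adjusted p = 0.958). The sham DMI effect on Ntrk3 moved to -0.24 (adjusted p = 0.149), whereas its mean DMI effect was -0.29 (adjusted p = 0.0127) and stayed past the threshold.

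**Figure D3:**
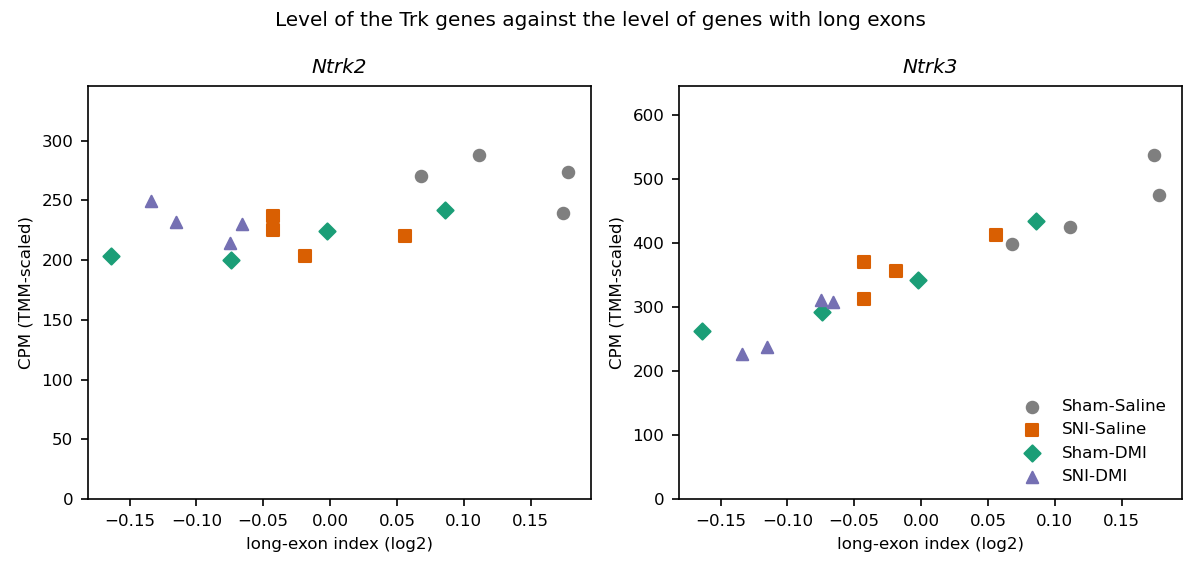
Level of Ntrk2 (left) and Ntrk3 (right) in CPM (vertical axes, from 0) against the long-exon index of each library on the log2 scale (horizontal axes), with 1 point per library and a symbol per group. Ntrk3 is lowest in the libraries with the lowest index and highest in those with the highest (227 to 538 CPM), and Ntrk2 shows a looser relation (200 to 288 CPM).

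Ngfr (p75NTR; chr11:95568818-95587735, minus strand) showed no called difference in any comparison. The Sham-Saline libraries held 728, 835, 814 and 801 CPM and the SNI-Saline libraries 802, 855, 753 and 799 CPM. The Sham-DMI libraries held 819, 817, 838 and 691 CPM and the SNI-DMI libraries 860, 771, 887 and 816 CPM. Each group overlapped every other, and Sham-DMI replicate 4 was the lowest library of the 16. The 95% intervals of the log2 differences were -0.12 to 0.15 for SNI-Saline against Sham-Saline and -0.08 to 0.19 for SNI-DMI against SNI-Saline.

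Ret (the shared signalling receptor of the GDNF family; chr6:118151745-118197718, minus strand) varied least among the members, the highest library being 1.19 times the lowest. It stood at 885, 826, 947 and 949 CPM in Sham-Saline and at 802, 845, 830 and 859 CPM in SNI-Saline. It stood at 944, 875, 893 and 797 CPM in Sham-DMI and at 796, 887, 841 and 807 CPM in SNI-DMI. The SNI libraries of either drug lay within or just below the range of the sham libraries. The mean injury effect was -0.09 (SE 0.0412, adjusted p = 0.155). It passed the threshold with the GC content and length trends removed (-0.15, adjusted p = 0.0554) and without Sham-DMI replicates 2 and 4 (-0.13, adjusted p = 0.087), and the mean DMI effect was -0.02 (95% interval -0.11 to 0.07).

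Gfra2 (the neurturin co-receptor; chr14:70890120-70979838, plus strand) was lower after injury in saline mice. It stood at 227, 181, 211 and 220 CPM in Sham-Saline and at 154, 174, 173 and 175 CPM in SNI-Saline, with no overlap. The difference was -0.31 (SE 0.0966, adjusted p = 0.0659). It was -0.40 with the GC content and length trends removed (adjusted p = 0.0614), and the call was lost in 5 of the 16 fits without 1 library, namely those that left out Sham-Saline 1, 3 or 4 or SNI-Saline 1 or 2, in which it lay between -0.25 and -0.31. In DMI mice the groups overlapped, with 226, 212, 181 and 182 CPM in Sham-DMI and 169, 224, 193 and 163 CPM in SNI-DMI, and the injury difference was -0.10 (95% interval -0.30 to 0.10) and -0.12 without Sham-DMI replicates 2 and 4. The difference between both injury effects was 0.21 (95% interval -0.08 to 0.50, adjusted p = 0.704). Averaged over both drugs the injury effect was -0.20 (adjusted p = 0.0662), lost without Sham-DMI replicates 2 and 4 (-0.22, adjusted p = 0.113) and in 8 of the 16 fits without 1 library (-0.17 to -0.20, leaving out Sham-Saline 1, 3 or 4, SNI-Saline 1 or 2, Sham-DMI 2 or SNI-DMI 1 or 4). Markers of non-peptidergic nociceptors, a class that expresses Gfra2, moved the same way in the saline comparison. Of 6 markers, 3 fell and 0 rose (12.0% of all genes were called), namely the receptor genes Mrgprd (-0.56, adjusted p = 0.0138), Lpar5 (-0.54, adjusted p = 0.0171) and Agtr1a (-0.42, adjusted p = 0.0466). In the mean DMI effect 2 of the 6 fell and 0 rose (30.6% of all genes were called), whereas Gfra2 stood at 0.04 (adjusted p = 0.724). Of 4 markers of C low-threshold mechanoreceptors, 1 fell and 0 rose in the saline comparison. With saline the summed level of the non-peptidergic markers was 489 to 648 CPM in sham and 418 to 502 CPM in SNI mice, and with DMI it was 476 to 541 CPM in sham and 397 to 529 CPM in SNI mice. The part of these neurons in the Gfra2 result was not tested, and in bulk tissue fewer cells of a type and less RNA per cell cannot be told apart.

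Gfra1 (the GDNF co-receptor; chr19:58235604-58455909, minus strand) had its highest levels in SNI-Saline. It stood at 181, 179, 179 and 171 CPM in Sham-Saline and at 203, 187, 203 and 208 CPM in SNI-Saline, all 4 above every Sham-Saline library. The fitted difference of 0.17 (95% interval -0.01 to 0.36, adjusted p = 0.242) did not pass the test over all genes. The DMI groups were more spread out, with 139, 157, 190 and 163 CPM in Sham-DMI and 193, 149, 154 and 187 CPM in SNI-DMI. Averaged over both surgeries, Gfra1 was lower with DMI by a log2 difference of -0.18 (SE 0.0618, adjusted p = 0.0442). It was -0.16 with the trends removed (adjusted p = 0.0903) and -0.17 without Sham-DMI replicates 2 and 4 (adjusted p = 0.0994), and the call was lost in 5 of the 16 fits without 1 library (-0.13 to -0.16), namely those leaving out Sham-Saline 1 or 3, SNI-Saline 1, Sham-DMI 1 or SNI-DMI 3. An antisense gene whose exons overlap those of Gfra1 held at most 1 count per library.

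Gfra3 (the artemin co-receptor; chr18:34689898-34720387, minus strand) had its highest mean in SNI-DMI mice. It stood at 62.3, 72.4, 74.8 and 77.9 CPM in Sham-Saline and at 84.7, 96.5, 68.7 and 71.3 CPM in SNI-Saline. It stood at 84.6, 87.8, 70.9 and 75.1 CPM in Sham-DMI and at 104, 94.9, 83.6 and 114 CPM in SNI-DMI. The groups overlapped in each of the 4 pairwise comparisons. Gfra3 rose with DMI over both surgeries by 0.23 (SE 0.0771, adjusted p = 0.0413), a call that held in each of the 16 fits without 1 library and without Sham-DMI replicates 2 and 4 (0.21, adjusted p = 0.0876), but not with the GC content and length trends removed (0.16, adjusted p = 0.15). The mean injury effect was 0.24 (SE 0.0771, adjusted p = 0.0594). It did not pass the threshold without Sham-DMI replicates 2 and 4 (0.25, adjusted p = 0.107) or with the trends removed (0.11, adjusted p = 0.392), and it was lost in 5 of the 16 fits without 1 library (0.19 to 0.24), namely those leaving out Sham-Saline 1, SNI-Saline 1 or 2, Sham-DMI 3 or SNI-DMI 4. Within SNI mice the DMI difference was 0.31 (95% interval 0.08 to 0.53, adjusted p = 0.151 in edgeR and 0.0776 in DESeq2). Of 5 markers of peptidergic nociceptors, a class that expresses Gfra3, 2 rose and 0 fell in the mean DMI effect (30.6% of all genes were called). In the mean injury effect 1 rose and 0 fell (16.1% of all genes), and within SNI mice DMI changed 0 by the calls (2.93%). The part of these neurons in the Gfra3 result was not tested.

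Bdnf (the TrkB ligand; chr2:109674700-109727007, plus strand) showed no called difference. It stood at 28.6, 30.2, 31.3 and 30.5 CPM in Sham-Saline and at 30.9, 32.0, 36.1 and 33.4 CPM in SNI-Saline. It stood at 31.5, 32.0, 37.7 and 25.8 CPM in Sham-DMI and at 35.8, 30.5, 33.97 and 37.1 CPM in SNI-DMI. Each pair of groups overlapped. The SNI-Saline difference was 0.13 (95% interval -0.05 to 0.32) and the DMI difference within SNI mice 0.05 (95% interval -0.13 to 0.24). Bdnf has the lowest exonic GC content of the members, 40.5%, and with the GC content and length trends removed its sham DMI effect became 0.36 (adjusted p = 0.0155), its mean DMI effect 0.31 (adjusted p = 0.0047) and its mean injury effect 0.20 (adjusted p = 0.0708). An antisense gene that overlaps exons of Bdnf held at most 14 counts per library.

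Differences between groups in the ratio of paired receptors do not depend on how libraries are scaled, and the fixed exon lengths cancel in them. A trend with exon length or GC content that differs between libraries does not cancel. The log2 ratio of Gfra1 to Gfra2 counts was -0.33, -0.02, -0.24 and -0.36 in Sham-Saline and 0.40, 0.10, 0.23 and 0.24 in SNI-Saline, with all 4 SNI-Saline libraries above all 4 Sham-Saline libraries. These ratios are not corrected for exon length, and their sign does not say which gene was higher. Per kilobase, Gfra2 was above Gfra1 in both groups, at 51.27 to 64.2 against 31.18 to 32.98 CPM per kilobase in Sham-Saline and 43.51 to 49.57 against 34.14 to 37.96 in SNI-Saline. The difference was 0.48 (exact two-sided permutation test, p = 0.0286, the smallest that 4 against 4 libraries allows; adjusted p = 0.229 over 8 tests). In the DMI groups the ratios overlapped, with -0.71, -0.44, 0.07 and -0.16 in Sham-DMI and 0.19, -0.59, -0.33 and 0.20 in SNI-DMI, a difference of 0.18 (exact p = 0.543). The log2 ratio of Ntrk2 to Ntrk3 was -0.64, -0.47, -0.90 and -0.81 in SNI-Saline and -0.54, 0.13, -0.42 and -0.03 in SNI-DMI. That difference was 0.49 (exact permutation p = 0.0571, adjusted p = 0.229), with overlapping groups. In the sham groups the ratio was -1.17, -0.56, -0.80 and -0.56 with saline and -0.38, -0.85, -0.62 and -0.55 with DMI, a difference of 0.18 (exact permutation p = 0.429). None of the 8 adjusted values passed the threshold, and 0.0286 cannot pass it after adjustment unless several tests reach that minimum. With the GC content and length trends removed, the Gfra1 to Gfra2 difference after injury in saline mice was 0.52. The Ntrk2 to Ntrk3 difference with DMI was then 0.47 in SNI mice and 0.11 in sham mice.

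**Figure D4:**
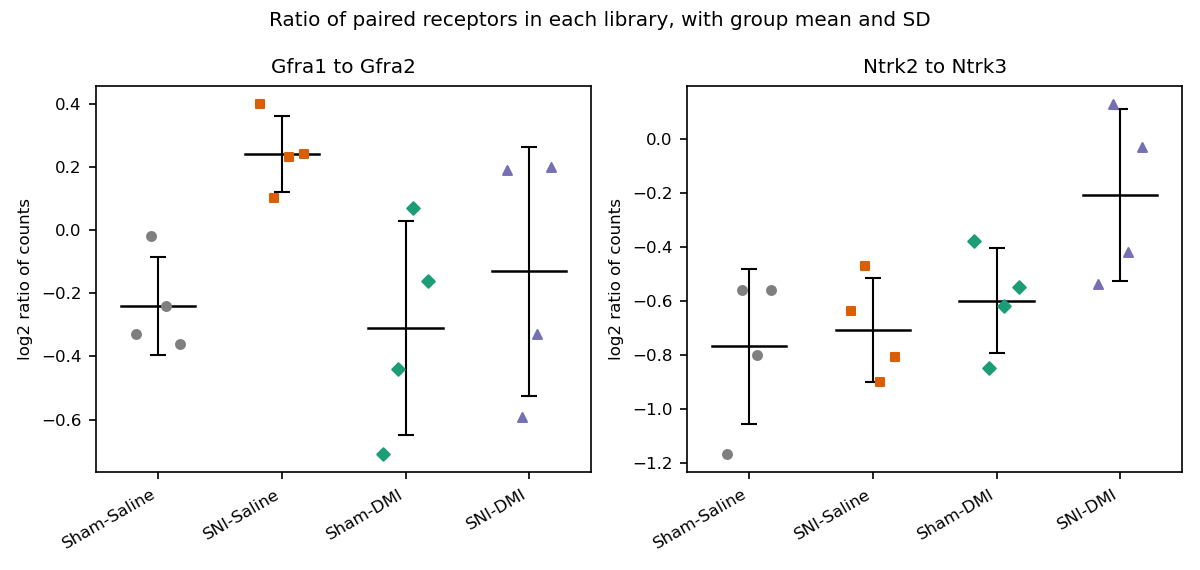
Log2 ratio of counts of Gfra1 to Gfra2 (left) and Ntrk2 to Ntrk3 (right) in each library (points), with group means (horizontal lines) and SD (error bars, n = 4). The ratios are not corrected for exon length. For Gfra1 to Gfra2, all 4 SNI-Saline libraries (0.10 to 0.40) lie above all 4 Sham-Saline libraries (-0.36 to -0.02).

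Other ligands of both families were present at low levels. NT-3 (Ntf3) had group means between 0.7271 and 1.003 CPM and neurturin (Nrtn) between 1.03 and 1.38 CPM, with no call in the 4 pairwise comparisons. Gdnf rose after injury in saline mice from 0.232 ± 0.0797 to 0.498 ± 0.188 CPM (SD, n = 4), a log2 difference of 1.08 (SE 0.363, adjusted p = 0.082). The counts behind it were 7 to 47 per library, and the call was lost in 6 of the 16 fits without 1 library (0.81 to 1.26), namely without any Sham-Saline library or SNI-Saline replicate 1 or 2, without a filter on low counts (adjusted p = 0.111) and with the GC content and length trends removed (adjusted p = 0.162). Artemin (Artn) stood at 0.0986 ± 0.0675 CPM in Sham-Saline and 0.265 ± 0.150 CPM in SNI-Saline (difference 1.38, adjusted p = 0.128), on 1 to 26 counts per library. The mean injury effect over both drugs was called for Gdnf (0.83, adjusted p = 0.0512) and Artn (1.05, adjusted p = 0.0786), on the same few counts. Persephin (Pspn) was between 0.228 and 0.266 CPM in every group mean. Ntf5 (NT-4) and Gdf15 held at most 6 and 15 counts in any library and were not tested.

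Among other receptors and co-receptors, Gfra4, the persephin co-receptor, stood at group means of 20.1 to 25.5 CPM with no call in the pairwise comparisons, and over both surgeries it rose with DMI by 0.25 (SE 0.0743, adjusted p = 0.023). Ncam1, a cell adhesion molecule that can act as a GDNF receptor, was the single receptor gene called within SNI mice, where it rose with DMI from 151 ± 5.37 to 183 ± 4.34 CPM (SD, n = 4; 0.28, SE 0.0534, adjusted p = 0.0622). That call was lost in 6 of the 16 fits without 1 library (0.25 to 0.30, leaving out SNI-Saline 1, 3 or 4 or SNI-DMI 1, 2 or 3). Sortilin (Sort1), the partner of p75NTR for pro-neurotrophins, fell with DMI in sham mice (-0.20, adjusted p = 0.0542), as did the GDNF-binding proteoglycan gene Sdc3 (-0.19, adjusted p = 0.0653). Both calls were lost with the trends removed, at adjusted p of 0.25 and 0.117. The sortilin relatives Sorcs1, Sorcs2 and Sorcs3 had group means of 49.5 to 62.3, 19.7 to 22.6 and 25.9 to 28.9 CPM and the p75NTR partner Lingo1 85.0 to 93.2 CPM, none of them called in the 4 pairwise comparisons. Sorcs1 was called lower in the mean DMI effect (-0.29, adjusted p = 0.00883). In that effect 2 of the 9 tested genes of this list rose and 3 fell, where 30.6% of all genes were called. Gfral held at most 4 counts in any library, and Rtn4r held 0 counts in all 16 libraries.

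Over all 51 genes of the 5 lists, 47 were tested. In SNI-Saline against Sham-Saline 3 rose and 4 fell, 14.9% of those tested against 12.0% of all genes. Beside Gdnf these were the p75NTR adaptor gene Maged1 (0.15) and the activity-regulated gene Arc (0.43), which rose, and the Trk and RET adaptor and exchange factor genes Frs2 (-0.27), Shc1 (-0.19) and Sos1 (-0.37) with the feedback inhibitor gene Spry4 (-0.37), which fell. In SNI-DMI against SNI-Saline 2 of 47 rose and 0 fell, against 2.93% of all genes, namely Ncam1 and Spry4, with Spry4 (0.31, adjusted p = 0.0777) at 22.6 ± 0.935 CPM in SNI-Saline, 28.0 ± 2.99 CPM in SNI-DMI and 29.2 ± 1.98 CPM in Sham-Saline (SD, n = 4). The injury and DMI comparisons of Spry4 share the SNI-Saline libraries. In Sham-DMI against Sham-Saline 4 rose and 6 fell, 21.3% of those tested against 23.4% of all genes. The genes that rose were Dok4 (0.17), Maged1 (0.21), the p75NTR-interacting gene Bex3 (0.24) and Arc (0.47), and those that fell, beside Sort1 and Sdc3, were Frs2 (-0.31), Sos1 (-0.32), the RET and TrkC substrate gene Dok6 (-0.73) and the immediate early gene Egr1 (-0.51). With the GC content and length trends removed, Maged1, Arc and Egr1 stayed past the threshold in this comparison and the other 7 did not. Without Sham-DMI replicates 2 and 4, 9 of the 10 stayed past it and Sdc3 did not (-0.11, adjusted p = 0.349). In SNI-DMI against Sham-DMI edgeR called 0 of the 47, against 0.402% of all genes, with 5 at an unadjusted p under 0.05, and DESeq2 called 1. Of the 19 calls over the pairwise comparisons, 7 were kept in each of the 16 fits without 1 library (Sos1 and Spry4 in the saline injury comparison, and Frs2, Sos1, Dok6, Maged1 and Egr1 in the sham DMI comparison), and 12 were lost in at least 1, from 1 fit for Dok4 and for Arc to 9 fits for Sdc3, all in the sham DMI comparison. The mean DMI effect called 17 of the 47, 36.2% against 30.6% of all genes. The median log2 difference of the tested genes lay between -0.04 and 0.04 in the 4 pairwise comparisons.

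The genes whose log2 CPM profiles over the 16 libraries were most like those of the members, among 15750 genes with a mean of at least 1 CPM, are given as a description, since the libraries share groups, depth and any trend with gene length. For Ntrk3 they were Kcna2, a potassium channel gene of large myelinated neurons (Pearson r = 0.99), and Zyg11b (r = 0.98), with 11.9 kb and 9.05 kb of merged exons. For Ntrk2 they were Lrguk (r = 0.90) and Pcdh11x (r = 0.89), with 12.1 kb and 13.9 kb. For Gfra2 they were the calcium channel gene Cacna1i and the phospholipase gene Plcb3 (r = 0.96 for each). For Gfra3 they were the neuropeptide genes Gal (r = 0.91) and Adcyap1 (r = 0.89). Gal is among the markers of injured sensory neurons and Adcyap1 among those of peptidergic nociceptors. Ret was closest to Gnao1 (r = 0.92) and Asap1 (r = 0.91), Gfra1 to Stk10 (r = 0.89) and Iqgap2 (r = 0.88), Ngfr to Ltbp3 (r = 0.81) and Crtac1 (r = 0.80), and Bdnf to Ankrd13a (r = 0.85) and Scnn1a (r = 0.78).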

How the data were processed

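The authors sequenced DRG RNA of 16 mice from stranded poly(A)-selected libraries with paired reads. Per the labels, reads were aligned to mm10 with HISAT2 and counted with HTSeq, so the deposited values are whole-number counts of read pairs per gene. Whether the counting used strand is not given in the sources used here, and overlapping antisense genes are therefore reported beside the members. Between 18.83% and 20.44% of the read pairs of a library were on the 5 lines that name no gene and were left out of library sizes. All 8 symbols matched 1 Ensembl identifier each in GENCODE M21 (GRCm38), which annotates 52489 of the 52636 genes, and promoter windows came from RefSeq.

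Counts were filtered (filterByExpr, 21371 genes kept), scaled by TMM and fitted over the 4 groups with the quasi-likelihood test of edgeR 4.0.16 (R 4.3.3). P-values were adjusted by Benjamini-Hochberg over all genes tested, and a gene was called at an adjusted p under 0.1, the adjusted threshold used by the study. CPM use TMM-scaled library sizes. Alternatives were upper-quartile scaling, DESeq2 1.42.0, no filter, the libraries of a comparison alone, a replicate block, removal of each library's trends with GC content and exon length (mgcv 1.9.3), omission of each library and, chosen after the data were seen, omission of Sham-DMI replicates 2 and 4. Ratios were compared by exact permutation tests (scipy 1.17.1). The thresholds of the long-exon and low-GC indices were also chosen after the data were seen. On simulated counts for SNI-Saline against Sham-Saline (21107 genes, 200 changed), the test called 60%, 79.6%, 89.8% and 94% of genes changed 1.5-, 2-, 3- and 4-fold. Every member difference of the main fit was smaller than 1.5-fold. The largest was a log2 difference of -0.46, for Ntrk3 in Sham-DMI against Sham-Saline. The simulation therefore does not give the share called for differences of the members' size.

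The 8 members and the ligands and receptors of the lists are named, apart from genes that are not reported here, as are other listed genes called in at least 1 of the 4 pairwise comparisons and the 2 genes with the most similar profile for each member. The members and lists were chosen with earlier results of these data known. Mice are the replicates, with 1 mouse per library.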

Additional observations from a re-analysis of the deposited data

Results flagged for a closer look

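In each group of 4 libraries, the gap between the lowest or highest library and its neighbour was compared with the group's range, and 2 of 40 groups exceeded Dixon's 95% critical value, which chance alone reaches in about 1 in 20 groups. Ngfr in Sham-DMI had its lowest library, replicate 4, at 691 CPM with the next at 817 CPM, a gap of 0.859 of the range. Gfra2 in SNI-Saline had its lowest library, replicate 1, at 154 CPM with the next at 173 CPM, a gap of 0.898 of the range.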

How the results depend on the processing

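Over the alternatives other than omission of a single library, 436 results for single genes kept their direction and side of the threshold, 30 lost a call, 15 gained one and 19 changed sign. The number of members called in SNI-Saline against Sham-Saline was 4 with the libraries of the comparison alone (Ntrk2, Ntrk3, Gfra1 and Gfra2, with 16.7% of all genes called) and 1 with the GC content and length trends removed (Gfra2, with 3.32%). In SNI-DMI against SNI-Saline it was 2 with DESeq2 (Ntrk3 and Gfra3, with 4.86% of all genes), and 1 (Ntrk3) without a filter (1.49%), with the libraries of the comparison alone (8.86%) and without Sham-DMI replicates 2 and 4 (5.46%). In Sham-DMI against Sham-Saline it was 1 with the trends removed (Bdnf, with 16.8%), and for the mean injury effect it was 1 without Sham-DMI replicates 2 and 4 (Ret, with 8.91%) and 4 with the trends removed (Ntrk3, Ret, Gfra2 and Bdnf, with 12.0%). With 1 library left out, the numbers called ranged from 0 to 3, 0 to 1 and 1 to 2 in these 3 comparisons, from 0 to 4 for the mean injury effect and from 2 to 4 for the mean DMI effect. The cause of these changes was not tested.

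Sign changes outside single omissions were all of differences that were not called. With the trends removed they were Ngfr at -0.06 (SNI-Saline against Sham-Saline, SNI-DMI against Sham-DMI and mean injury effect), -0.01 (SNI-DMI against SNI-Saline) and -0.02 (mean DMI effect), Ret at 0.0046 (Sham-DMI against Sham-Saline) and -0.02 (difference between injury effects), Gfra1 at -0.01 (SNI-DMI against Sham-DMI) and Ntrk3 at -0.10 (difference between injury effects). Without Sham-DMI replicates 2 and 4 they were Ngfr at 0.06 (Sham-DMI against Sham-Saline) and -0.01 (difference), Ret at 0.03, -0.03 and 0.01 (Sham-DMI against Sham-Saline, difference and mean DMI effect) and Bdnf at -0.01 (SNI-DMI against Sham-DMI). Ngfr in Sham-DMI against Sham-Saline was 0.01 with DESeq2 and with the libraries of the comparison alone and 0.0011 without a filter, and Ret in SNI-DMI against SNI-Saline was 0.0043 without a filter. With 1 library left out, sign changes fell in the ranges for Bdnf of -0.0038 to 0.18 (Sham-DMI against Sham-Saline) and -0.12 to 0.07 (difference), Gfra1 of -0.01 to 0.17 (SNI-DMI against Sham-DMI), Gfra2 of -0.01 to 0.08 (mean DMI effect), Ngfr of -0.0005 to 0.11 (SNI-DMI against Sham-DMI), -0.02 to 0.05 (SNI-Saline against Sham-Saline), -0.03 to 0.07 (Sham-DMI against Sham-Saline) and -0.02 to 0.10 (difference), Ntrk3 of -0.08 to 0.19 (difference), and Ret of -0.04 to 0.03 (SNI-DMI against SNI-Saline), -0.08 to 0.02 (Sham-DMI against Sham-Saline), -0.02 to 0.08 (difference) and -0.04 to 0.01 (mean DMI effect).

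Replicate numbers are shared between groups, but over 24 pairs of same-numbered libraries the deviations from group means correlated at -0.0813 to 0.184, with 5 pairs over 0.1 and 6 matching their own number best, so the numbers were not taken to pair the mice. With a replicate block 2, 0, 2 and 0 members were called in SNI-Saline against Sham-Saline, SNI-DMI against SNI-Saline, Sham-DMI against Sham-Saline and SNI-DMI against Sham-DMI, and over all genes 2106, 172, 4739 and 70 against 2571, 626, 5010 and 86 without it. Over all genes, SNI-Saline against Sham-Saline had 709 calls with the trends removed. SNI-DMI against SNI-Saline had 5 with the trends removed, 1859 with DESeq2, 1812 with its own libraries alone and 1206 without Sham-DMI replicates 2 and 4. SNI-DMI against Sham-DMI had 206, 502, 9 and 30 under the same settings and 310 without a filter. The difference between the injury effects had 16 with DESeq2 against 0 in edgeR, the mean injury effect 1968 without Sham-DMI replicates 2 and 4 against 3449, and the mean DMI effect 4320 with the trends removed against 6542.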
